A study of Homo sapiens with 20 samples.

Results

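Transcripts of the proteasome, the protease that degrades ubiquitin-tagged proteins, were followed in U2OS cells through 3 acute stresses and a depletion of UPF1, and then through a block of transcription. The genes were chosen by name: every probe set annotated with a single symbol that begins with PSMA, PSMB, PSMC, PSMD, PSME, PSMF or PSMG and goes on with a number, with pseudogenes and antisense names left out. The rule found 81 of the 54675 probe sets on the array, which stand for 42 of 19775 genes. Each gene was read from its probe set with the highest mean, and genes whose mean log2 intensity over all arrays exceeded 4.70 were tested, 14478 in all and 41 of the 42. PSMA8, an alpha subunit of the testis, had a mean log2 intensity of 3.20 and was not tested. PSMA6, PSMB11, PSMC5, PSMD7, PSMD13 and PSME2 had no probe set of their own under the rule and were not analysed here.

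U2OS is an established human osteosarcoma cell line, grown here in DMEM with 10% serum. The arrays, 20 in all, fall into 5 conditions: untreated control cells, hypoxia (below 0.1% oxygen), 2.5 ug/ml tunicamycin, 100 ug/ml emetine, and an shRNA against UPF1 that is called shRent1. Each stress was given for 3 hr. DRB, an inhibitor of elongation by RNA polymerase II, was then added at 100 ug/ml, and RNA was taken at 0 hr and then after 1.5, 3 and 4.5 hr, with 1 array for each condition and time. Tunicamycin blocks N-linked glycosylation and so causes stress of the endoplasmic reticulum. Emetine halts ribosomes, and UPF1 is an RNA helicase required for nonsense-mediated decay. A control hairpin for the depleted cells is not named, and it is not stated whether the stress went on during DRB.

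The proteasome is a barrel-shaped core particle, the 20S, capped by a regulatory particle, the 19S. The core is built of alpha subunits, which gate the entry, and beta subunits, some of which carry the proteolytic sites. The 19S holds a ring of ATPases that unfold substrates, receptors for ubiquitin, and a lid that removes ubiquitin chains. Dedicated chaperones assemble both particles, and other activators such as PSME1 and PSME3 can cap the core in place of the 19S. When proteasome activity falls short, the transcription factor NFE2L1 (also called NRF1) is known to raise the subunit genes together through antioxidant response elements in their promoters.

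The core of that element, TGACNNNGC, was searched on both strands of the 250 bases before the RefSeq gene start. Promoters were found for 36 of the 42 genes, and 11 of these 36 (30.6%) held it, against 13.2% of 27305 genes with a promoter. It was in 5 of 17 promoters of transcripts lower in emetine (29.4%) and in 3 of 5 of those that fell after DRB (60%). It was 1 of 11 motifs looked at. Among the others, TGACTCAGC, which is the core with its open bases fixed, was in 0% of the 36 against 0.568% of all. CCGGAAG was in 27.8% against 10.2% and GCGGAAG in 19.4% against 7.12%. The remaining ones stood between 0% and 58.3% against 2.03% to 46.2% of all. Of the transcripts on which the results below turn, 8 had a promoter with the core, and their windows are given to show where the core lies in the promoters of 2 sets of genes that changed differently. PSMB3, PSMB9, PSMD3, PSME1 and PSMG1 were lower in emetine, and PSMD5, PSMD12 and PSMG2 fell after DRB. Each window is 57 bases long, from GRCh38.p14, 5′ to 3′ on the strand of its gene, with the core in capitals (on the opposite strand in PSMB9). A match describes the letters and is no evidence of binding.
PSMB3, chr17:38752613-38752669, plus strand: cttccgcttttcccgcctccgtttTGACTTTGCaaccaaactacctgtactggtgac
PSMB9, chr6:32854020-32854076, plus strand: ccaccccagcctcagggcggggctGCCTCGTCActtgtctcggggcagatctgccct
PSMD3, chr17:39980746-39980802, plus strand: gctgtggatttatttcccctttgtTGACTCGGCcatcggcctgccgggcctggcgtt
PSME1, chr14:24136084-24136140, plus strand: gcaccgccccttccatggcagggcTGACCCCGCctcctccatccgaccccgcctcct
PSMG1, chr21:39183602-39183658, minus strand: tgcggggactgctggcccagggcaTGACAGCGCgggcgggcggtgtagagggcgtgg
PSMD5, chr9:120843024-120843080, minus strand: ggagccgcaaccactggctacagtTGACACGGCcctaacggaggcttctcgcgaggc
PSMD12, chr17:67366710-67366766, minus strand: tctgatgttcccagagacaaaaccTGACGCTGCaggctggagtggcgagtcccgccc
PSMG2, chr18:12658675-12658731, plus strand: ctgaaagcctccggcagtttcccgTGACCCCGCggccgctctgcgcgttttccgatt

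Values are deposited intensities on a log2 scale, normalized between arrays, so each stands relative to the rest of its array. Fewer cells and less RNA per cell cannot be told apart in such data. A fitted level is the log2 difference from control at DRB addition, a slope is in log2 per hr, and errors are SE from the scatter of single arrays about the fitted lines. A call means a limma p of at most 0.05 after Benjamini-Hochberg adjustment over all 14478 genes. Of 7 markers of mesenchymal and osteosarcoma cells, 6 were above the filter. Of 9 measured markers of other cell types 6 were too, the highest of them EPCAM at 7.55 to 8.90, while PTPRC, CDH1 and ALB were below it. The brighter UPF1 probe set was at 30.2% of its control mean in the depleted cells and the other at 61.4%. The 3' minus 5' log2 signal of ACTB, a sign of RNA or labelling quality, averaged 0.55 ± 0.10 (SD, n = 4 arrays) in control and 0.54 ± 0.11 in tunicamycin. It averaged 2.04 ± 0.13 in hypoxia, 2.04 ± 0.19 in emetine and 1.24 ± 0.06 in UPF1-depleted cells. That of GAPDH averaged 0.04 in control and 0.15 in hypoxia, the highest condition.

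At DRB addition, emetine had the most proteasome transcripts below control. There 18 of 41 members were lower than in control and none was higher, where 19.8% of all genes tested were lower and 18.9% higher. The members' median difference was -0.24, beside -0.08 over all genes. Of the 18, 17 were below control at all 4 times. The call was made from the same arrays and favours this, so the count is no separate support. The same holds where arrays of a called gene are said below not to overlap. The ACTB signal above moves with this result and with that of hypoxia, and its part in them was not tested.

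The deepest difference was in PSME3, which encodes PA28-gamma, the nuclear activator that opens the core without ubiquitin. Its log2 intensity was 10.32, 10.42, 10.33 and 10.45 in control from 0 to 4.5 hr, and 9.46, 9.52, 9.49 and 9.60 in emetine. The groups did not overlap, and the fitted difference was -0.88 ± 0.10 (limma adjusted p = 2.74e-05), 1.84-fold lower. All 4 PSME3 probe sets were lower in emetine, at -0.62 to -0.94. PSME1, a subunit of the interferon-inducible PA28 cap, was lower, at -0.38 ± 0.09, with at most 10.83 in emetine and at least 10.86 in control. PSME4, which encodes the activator PA200, differed by 0.01 ± 0.09 at its brightest probe set.

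In the 20S core, 2 of 6 alpha subunits and 2 of 7 beta subunits of the constitutive particle were lower, beside 19.8% of all genes tested. A difference of the core from that share was not tested. PSMA1 and PSMA5 of the alpha ring differed by -0.38 ± 0.11 and -0.40 ± 0.09, and PSMB3, a structural beta subunit, by -0.25 ± 0.09. PSMB5 carries the chymotrypsin-like site, the target of bortezomib. It read 11.59, 11.56, 11.43 and 11.68 in control and 11.10, 11.16, 11.33 and 11.37 in emetine. All 4 emetine arrays lay below all 4 control arrays, and the fitted difference was -0.45 ± 0.12 (limma adjusted p = 0.011). The other constitutive catalytic subunits did not pass, PSMB6 at -0.25 ± 0.10 (limma adjusted p = 0.077) and PSMB7 at -0.18 ± 0.09 (limma adjusted p = 0.115). Of the inducible catalytic subunits, which replace the constitutive ones in the immunoproteasome, PSMB9 (-0.47 ± 0.11) and PSMB10 (-0.32 ± 0.12) were lower and PSMB8 (-0.27 ± 0.13) did not pass. PSMB9 read 9.53, 9.85, 9.72 and 10.12 in control and 9.08, 9.19, 9.20 and 9.32 in emetine, again with no overlap.

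In the 19S, 8 of 14 tested members were lower in emetine, beside 19.8% of all genes tested, and the median of the 14 was -0.34. Among the ATPases, PSMC3 was the lowest against control: 11.44, 11.52, 11.46 and 11.79 in control, 10.85, 10.83, 10.84 and 11.07 in emetine. The fitted difference was -0.61 ± 0.11 (limma adjusted p = 0.000890). PSMC4 (-0.47 ± 0.12) and PSMC1 (-0.37 ± 0.09) were lower too, while PSMC6 stood above control at all 4 times with an estimate of 0.26 ± 0.12 that did not pass (limma adjusted p = 0.094). Of the base subunits that are no ATPases, the scaffold PSMD2 was lower, at -0.48 ± 0.08 and the ubiquitin receptor PSMD4 at -0.49 ± 0.14, and PSMD1 was not (-0.01). In the lid, PSMD3 (-0.46 ± 0.11), PSMD8 (-0.43 ± 0.12) and PSMD6 (-0.31 ± 0.11) were lower. PSMD14, the lid's deubiquitinase, differed by -0.16 ± 0.08 (limma adjusted p = 0.130). PSMD6 was the exception to the shared direction over time, below control at 2 times and above it at the other 2.

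The assembly chaperones were divided. PSMG1, which with PSMG2 nucleates the alpha ring, was lower, at -0.51 ± 0.11 (8.62, 8.81, 8.56 and 8.59 in control against 8.14, 8.34, 8.35 and 8.39 in emetine), and PSMD10, a chaperone of the base, at -0.39 ± 0.13. PSMG2 (0.05 ± 0.10), PSMG3 (-0.20 ± 0.09) and PSMG4 (-0.23 ± 0.15) did not pass, nor did PSMD5, another base chaperone, at 0.25 ± 0.10 (limma adjusted p = 0.063). The inhibitor PSMF1, also called PI31, was at -0.20 ± 0.10. When single arrays were left out, 4 members passed without the first control array (0 hr) and 5 without the first emetine array. PSME3 and PSMC3 passed in all 8 such fits.

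**Figure D1:**
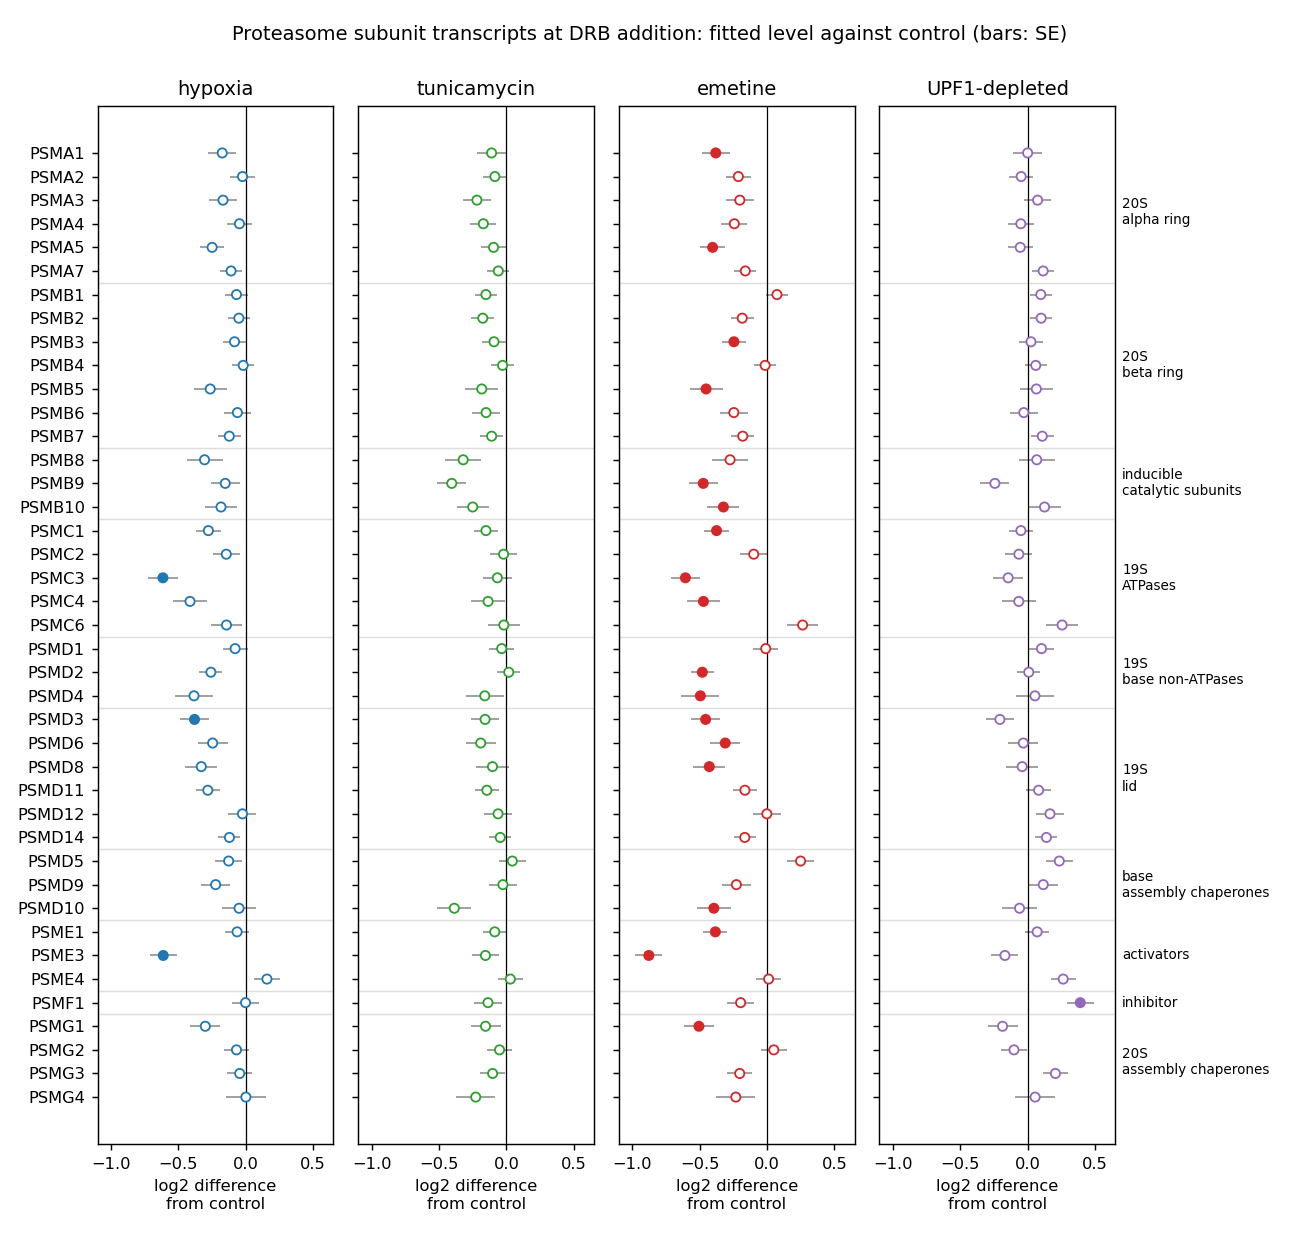
Fitted log2 difference from control at DRB addition for the 41 tested genes (rows, grouped by role) in each condition (panels). Bars are SE, and filled points passed the test over all genes. There are 18 such points in the emetine panel, 3 for hypoxia, 1 for UPF1 depletion and 0 for tunicamycin, with PSME3 in emetine farthest left at -0.88.

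In hypoxia 3 of 41 members were lower and none higher, where 4.44% of all genes tested were lower and 3.21% higher. PSMC3 read 10.84, 10.82, 11.00 and 11.16, below all 4 control arrays, a fitted difference of -0.62 ± 0.11 (limma adjusted p = 0.00651). PSME3 read 9.69, 9.82, 9.81 and 9.82, also below all of control, at -0.61 ± 0.10 (limma adjusted p = 0.00424). The third was the lid subunit PSMD3, at -0.38 ± 0.11 (limma adjusted p = 0.048), with 10.14 to 10.36 against 10.52 to 10.61. The members' median was -0.14 beside -0.02 over all genes. The 13 tested genes of the core had a median of -0.08 and the 14 of the 19S one of -0.27. None of the 3 calls held with only control and hypoxia in the fit or without a 0 hr array: limma adjusted p was 0.198 for PSMC3, 0.166 for PSME3 and 0.355 for PSMD3 without that of control, and 0.116, 0.188 and 0.759 without that of hypoxia. Of all genes called in hypoxia 42.0% were higher, and 30.8% with arrays centred on ribosomal protein genes.

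PSMC3 and PSME3 were thus low in both hypoxia and emetine, and both comparisons use the same control arrays. Hypoxia was also set against the other conditions. These contrasts reuse the hypoxia arrays from which PSMC3 and PSME3 were called, and the SE pools the scatter of all conditions. They are therefore no separate support for the calls. Between hypoxia and tunicamycin 13.3% of all genes differed. PSMC3 was lower in hypoxia than in tunicamycin, at -0.55 ± 0.11 (limma adjusted p = 0.00654) and PSME3 at -0.46 ± 0.10 (limma adjusted p = 0.010). Against UPF1-depleted cells, where 24.3% of all genes differed, they were lower in hypoxia, at -0.47 ± 0.11 and -0.44 ± 0.10 (limma adjusted p = 0.00854 and 0.00706). Between hypoxia and emetine (33.0% of all genes) neither difference passed, PSMC3 at -0.01 ± 0.11 and PSME3 at 0.27 ± 0.10, whereas PSMB9 and PSME1 were higher in hypoxia than in emetine by 0.32 ± 0.11 and 0.32 ± 0.09 (limma adjusted p = 0.038 and 0.014).

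**Figure D2:**
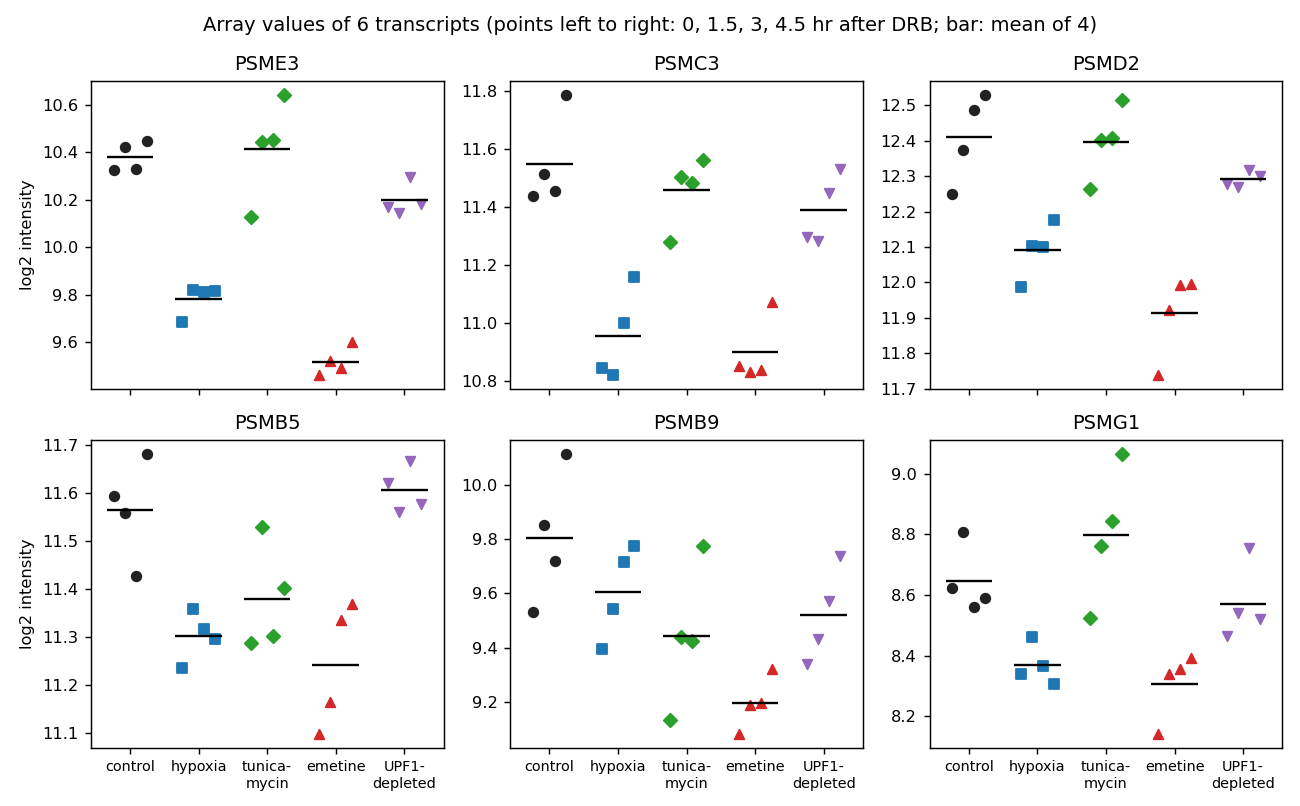
Log2 intensity of 6 transcripts on every array, with the 4 arrays of a condition from left to right in order of time after DRB (0 to 4.5 hr) and a bar at their mean; the vertical axes differ and do not start at 0. In PSME3 and PSMC3 the hypoxia and emetine arrays lie below all control arrays (PSME3 at most 9.82 in hypoxia and 9.60 in emetine), and tunicamycin overlaps control.

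In tunicamycin limma called no member at DRB addition, and 3 of 41 had an unadjusted p under 0.05. Over all genes, 1.97% were higher and 0.926% lower. The members' median was -0.11 beside -0.03 over all genes. The lowest was PSMB9 at -0.41 ± 0.11 (limma adjusted p = 0.070), with 9.13, 9.44, 9.43 and 9.77, below control at each of the 4 times. The inducible subunits PSMB8 (-0.32 ± 0.13) and PSMB10 (-0.25 ± 0.12) had estimates of the same sign. PSMB5 was at -0.18 ± 0.12 and PSMD4 at -0.16 ± 0.14.

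In UPF1-depleted cells 1 of 41 members was higher, where 9.68% of all genes tested were higher and 3.99% lower. That member was the inhibitor PSMF1, which read 10.29, 10.38, 10.47 and 10.47 against 9.79, 10.15, 10.03 and 10.03 in control, at 0.39 ± 0.10 (limma adjusted p = 0.024). All depleted arrays lay above all control arrays. Hypoxia, tunicamycin and emetine differed from depleted cells in PSMF1 by -0.39 ± 0.10, -0.53 ± 0.10 and -0.59 ± 0.10 (24.3%, 16.6% and 37.5% of all genes differed). These contrasts reuse the depleted arrays from which PSMF1 was called, so they are no separate support. The call against control was lost without the 0 hr array of either control (0.24, limma adjusted p = 0.539) or the depleted cells (0.25, limma adjusted p = 0.495). The members' median was 0.06 beside 0.01 over all genes. Of all genes called 70.8% were higher, 51.7% after quantile normalization and 60.3% with arrays centred on ribosomal protein genes.

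PSMF1 has 4 probe sets, and they disagreed in UPF1-depleted cells. The brightest, which may cross-hybridize, gave the 0.39 above, and the next, at a mean of 9.06 against 10.02, gave -0.18 ± 0.15. With the median of its probe sets PSMF1 was at 0.01 (limma adjusted p = 0.986). Without probe sets that may cross-hybridize it was at 0.19 (limma adjusted p = 0.533). With every probe set fitted on its own, 5 of the 72 member probe sets above the filter were higher in depleted cells and none lower, beside 7.24% and 2.51% of 32770 probe sets. The other 4 were dimmer probe sets of genes whose brightest did not pass: 1 of PSMD11 (0.76 ± 0.17, limma adjusted p = 0.015), 1 of PSMD9 (0.57 ± 0.13, limma adjusted p = 0.018) and 2 of PSME4 (0.63 ± 0.12 and 0.50 ± 0.12, limma adjusted p = 0.00662 and 0.026). The dim PSMD11 probe set read 9.19, 9.09, 8.93 and 8.67 in depleted cells and 8.43, 8.55, 7.91 and 8.22 in control. The groups did not overlap, while the bright PSMD11 probe set gave 0.08 (11.96 to 12.11 against 11.94 to 12.03).

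In emetine 28 of the 72 probe sets were lower and 2 higher, beside 18.6% and 16.6% of all. The 2 higher ones were a dim PSMB2 probe set (mean 5.54), which read 6.38 to 6.82 in emetine and 5.16 to 5.51 in control (1.66 ± 0.13), and a PSME4 probe set (0.81 ± 0.12). The brightest PSMB2 probe set gave -0.18, and another of PSME4 gave -0.39 ± 0.12. For PSMB2 and PSME4 the direction in emetine therefore depended on the probe set. Which transcripts each probe set reads was not analysed here.

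**Figure D3:**
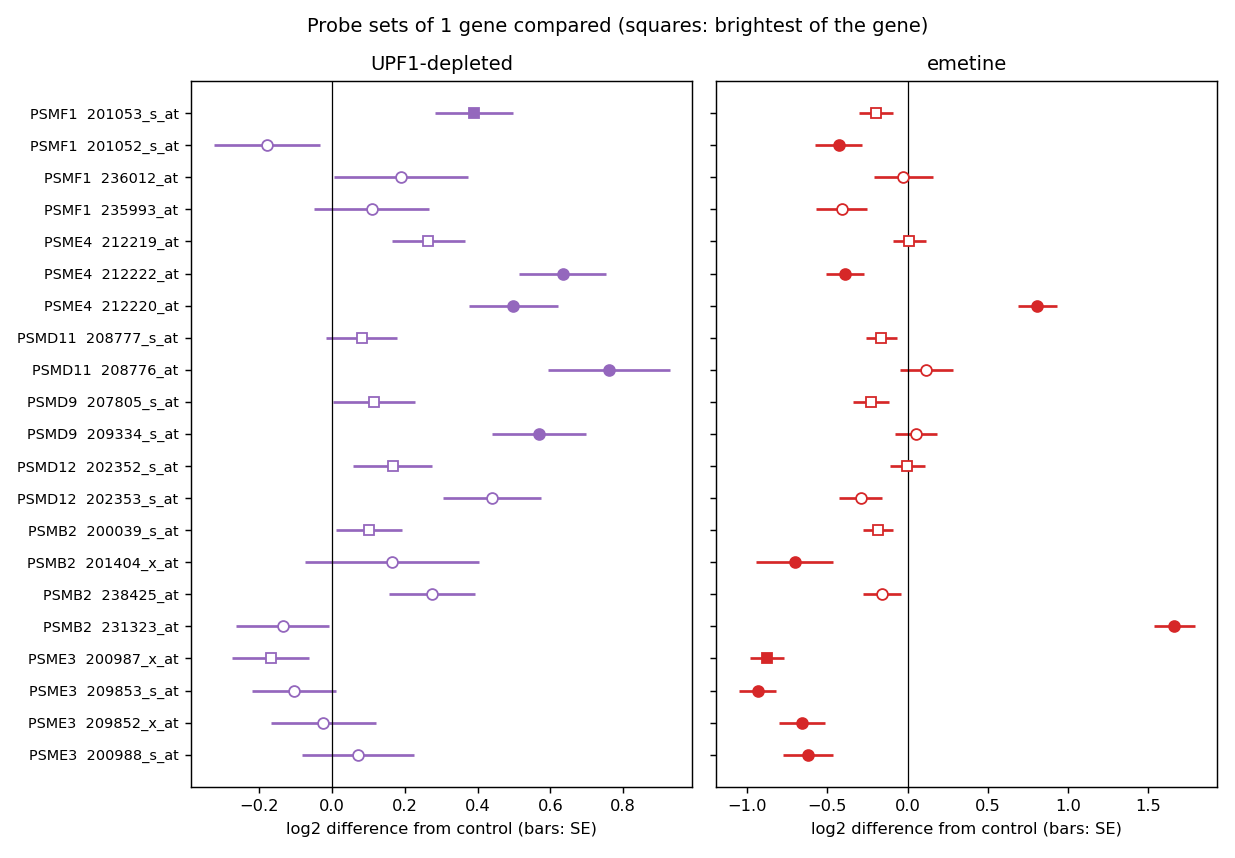
Fitted log2 difference from control at DRB addition (bars: SE) for each probe set above the filter of 7 genes, in UPF1-depleted cells (left) and emetine (right). Squares mark the brightest probe set of a gene and filled symbols passed the test over all probe sets. The 4 PSME3 probe sets lie together in emetine, from -0.62 to -0.94, and those of PSMB2 and PSME4 lie on both sides of 0.

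After DRB some members fell and others rose. In control 5 of 41 members fell and 5 rose, where 17.5% of all genes tested fell and 14.2% rose. Neither share of the members exceeded that over all genes, so such a split is not particular to them. Each slope was tested against 0 on the deposited scale, on which the median slope over all genes was itself 0.03 in control. The 5 that fell were 2 lid subunits (PSMD12 and PSMD6), the base chaperone PSMD5, and the core chaperones PSMG2 and PSMG3. None of the 13 core subunits tested fell. The same 5 fell in hypoxia (5 of 5 called there, background 14.2%) and in UPF1-depleted cells (5 of 6, background 16.5%), where PSMC6 also fell. Those backgrounds are shares of all genes tested. The share among all genes that fell in control was not computed, so the repeat is not shown to be particular to these genes. In UPF1-depleted cells none of the 6 passed without the 4.5 hr array (limma adjusted p = 0.102 for PSMD5, 0.107 for PSMD12, 0.232 for PSMG3, 0.326 for PSMD6, 0.431 for PSMC6 and 0.571 for PSMG2). In hypoxia PSMD5, PSMD12 and PSMG3 passed whichever of the 4 arrays was left out, PSMD6 was lost in 1 case and PSMG2 in 3. The slope estimates in control, hypoxia and UPF1-depleted cells share no array. Their p-values are not separate, because the fit pools the scatter of arrays over all conditions. The repeat of the same 5 calls is therefore no independent replication. Which genes count as rising or falling depends on the scale: of all genes called in control 44.9% rose, 59.6% after quantile normalization and 27.1% with arrays centred on ribosomal protein genes.

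PSMD5 showed the steepest control slope. It read 8.93, 8.72, 8.43 and 8.11 in control, so that 56.3% of the 0 hr signal was left at 4.5 hr. It read 8.80, 8.68, 8.30 and 8.10 in hypoxia and 9.19, 8.96, 8.84 and 8.51 in UPF1-depleted cells. The slopes were -0.19 ± 0.03, -0.16 ± 0.03 and -0.14 ± 0.03 log2 per hr (limma adjusted p = 9.12e-05, 0.000405 and 0.000909). In tunicamycin the signal was 8.96, 9.08, 8.86 and 8.91, and in emetine 9.20, 9.27, 9.39 and 9.37. It thus declined over time in 3 conditions, and in tunicamycin and emetine 96.5% and 112% of the 0 hr signal was present at 4.5 hr.

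PSMG3, a chaperone of the alpha ring, went from 11.36 to 10.61 in control (59.8% left), from 11.28 to 10.52 in hypoxia and from 11.58 to 11.11 in UPF1-depleted cells. Its slopes were -0.17 ± 0.02, -0.17 ± 0.02 and -0.10 ± 0.02. PSMD12 read 12.24, 12.20, 11.67 and 11.61 in control, with most of the drop between 1.5 and 3 hr, and 12.22, 12.03, 11.66 and 11.31 in hypoxia. In tunicamycin it stood at 12.20, 12.27, 12.21 and 12.21. PSMD6 ended at 79.0% of its 0 hr signal in control, 66.1% in hypoxia and 68.6% in UPF1-depleted cells. PSMG2 ended at 80.7%, 77.6% and 79.2%. The calls for PSMD12, PSMG3 and PSMD5 in control held whichever of its 4 arrays was left out, and those for PSMD6 and PSMG2 were lost in all 4 cases.

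**Figure D4:**
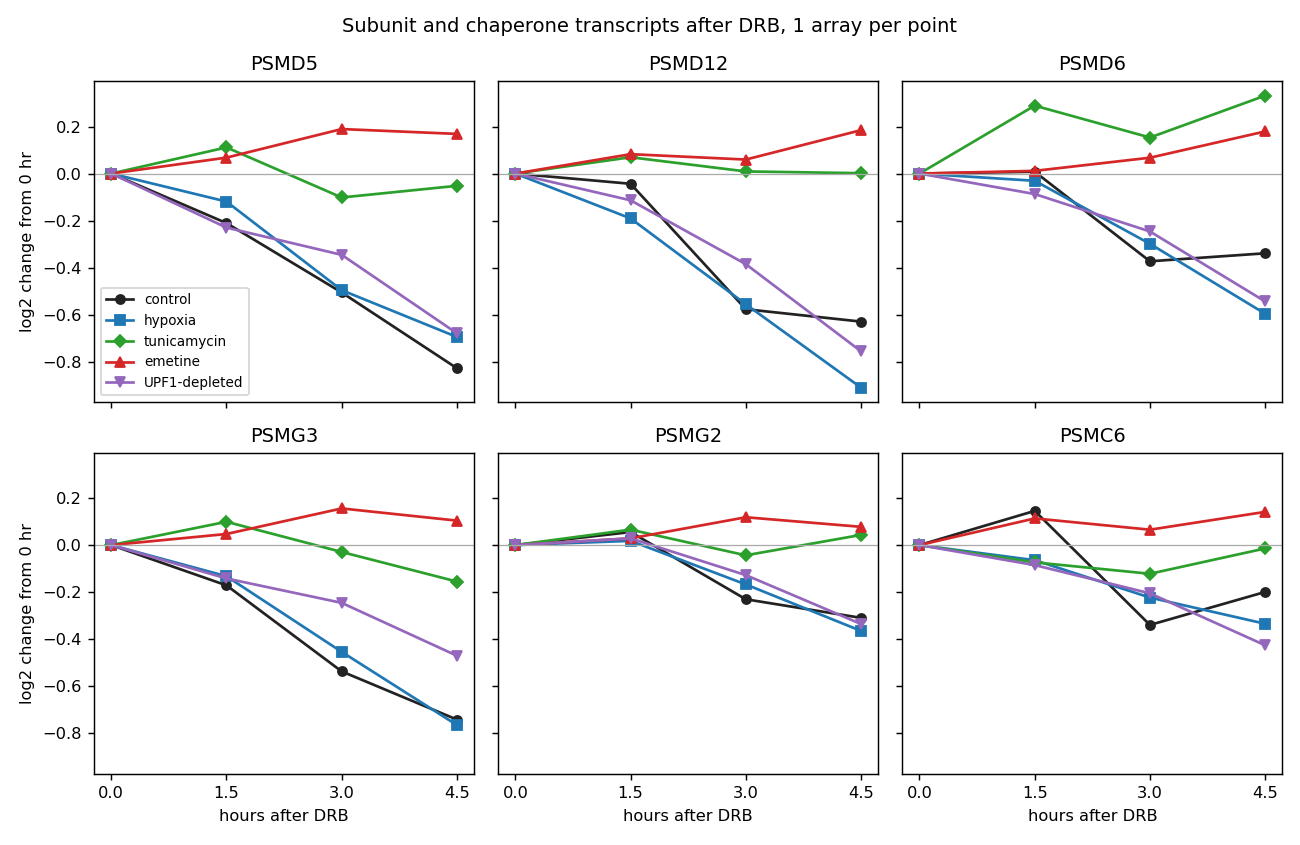
Log2 change from the 0 hr array of the same condition for 6 transcripts, against hr after DRB, 1 array per point. PSMD5, PSMD12, PSMD6, PSMG3 and PSMG2 end between 53.2% and 80.7% of their 0 hr signal in control, hypoxia and UPF1-depleted cells, and between 89.8% and 126% in tunicamycin and emetine.

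No member fell in tunicamycin, where 11.4% of all genes tested fell, or in emetine, where 0.394% were called in either direction. The slope differences from control were tested directly. In tunicamycin 4 of 41 members had a higher slope than in control and none a lower one, where 4.66% of all genes tested were higher and 0.580% lower. They were PSMD5 (0.16 ± 0.04), PSMD12 (0.16 ± 0.04), PSMG3 (0.13 ± 0.03) and PSMD6 (0.15 ± 0.04), with limma adjusted p of 0.019, 0.027, 0.032 and 0.049. In emetine none of the 41 was lower (1.58% of all genes) and 5 were higher, a share close to the 12.8% of all genes. These were PSMD5 (0.23 ± 0.04), PSMG3 (0.20 ± 0.03), PSMD12 (0.20 ± 0.04), PSMD14 (0.10 ± 0.03) and PSMD6 (0.13 ± 0.04), with limma adjusted p of 0.000658, 0.000905, 0.00276, 0.032 and 0.042. PSMG2 was at 0.10 ± 0.03 in emetine and did not pass (limma adjusted p = 0.065).

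Hypoxia and UPF1 depletion called no slope difference among the members in limma. There were 0 and 1 of 41 with an unadjusted p under 0.05, and 0.0345% and 0.0414% of all genes were called. For the 5 falling transcripts the estimates were between -0.04 and 0.02 in hypoxia and between -0.03 and 0.07 in UPF1-depleted cells, each with an SE of 0.03 or 0.04. Set against each other (5.91% of all genes), hypoxia had a lower slope than tunicamycin for PSMD12 (-0.20 ± 0.04), PSMD6 (-0.19 ± 0.04), PSMD5 (-0.14 ± 0.04) and PSMG3 (-0.14 ± 0.03), with limma adjusted p of 0.011, 0.018, 0.037 and 0.032. Between tunicamycin and emetine no difference passed for these 4, with estimates from -0.07 to 0.02, where 6.40% of all genes differed.

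The calls in emetine for PSMD5 and PSMG3 held in each of the 8 fits that left out 1 array, and that for PSMD12 in 7 of them (0.17, limma adjusted p = 0.077, without the emetine array at 4.5 hr). Those for PSMD14 and PSMD6 were lost in 5 and 8 of the 8. All 4 calls in tunicamycin were lost without the 0 hr or the 4.5 hr array of control or of tunicamycin, with estimates from 0.11 to 0.20. For PSMD5 the limma adjusted p was 0.184 and 0.248 without the 0 hr array of control and of tunicamycin. It was 0.155 and 0.199 without those at 4.5 hr. The call for PSMD6 was lost in all 8 fits. All 4 calls were also lost with only control and tunicamycin in the fit. PSMD12 has a dimmer probe set with estimates of the same sign but smaller, 0.05 ± 0.05 in emetine and 0.07 ± 0.05 in tunicamycin, neither past the test. PSMD5 and PSMD6 each have a further probe set below the filter.

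The median slope over all genes tested was above 0 in every condition, from 0.02 to 0.03 log2 per hr. The members that rose on this deposited scale were not those that fell. In control they were the catalytic subunits PSMB6, PSMB9 and PSMB10, the scaffold PSMD2 and the activator PSME1. PSME1 read 10.86, 11.09, 11.20 and 11.34, a slope of 0.10 ± 0.02 (limma adjusted p = 0.00453). PSMB9 had a slope of 0.11 ± 0.03 and PSMB10 one of 0.09 ± 0.03. PSMB6, PSMB9, PSMB10 and PSME1 also rose in hypoxia, where 6 members rose (background 15.3%), and in UPF1-depleted cells, where 4 rose (background 11.0%). When 1 of the 4 arrays of a condition was left out, many of these calls were lost. In UPF1-depleted cells each of the 4 was lost in all 4 cases, and in hypoxia PSMB9 was lost in 4, PSMB6 in 3, and PSMB10 and PSME1 in 2. In control PSMD2 was lost in 3 cases and the other 4 genes in 2.

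In tunicamycin 12 of 41 members rose after DRB and none fell, where 11.0% of all genes tested rose and 11.4% fell. They included 6 catalytic or beta subunits besides PSMB3 (PSMB2, PSMB6, PSMB7, PSMB8, PSMB9 and PSMB10), together with PSMC1, PSMD4, PSME1, PSME3 and PSMG1. The median slope was 0.06 over the members and 0.03 over all genes. PSME3 went from 10.13 to 10.44, 10.45 and 10.64, and PSMG1 from 8.52 to 8.76, 8.84 and 9.07. In both, the 0 hr array was the lowest. Without that array no member passed, without the one at 4.5 hr 2 did, and 5 passed when arrays were centred on ribosomal proteins. In emetine the median slope of the members was 0.04, beside 0.03 over all genes. None of the 41 passed in limma, 6 had an unadjusted p under 0.05, and 0.394% of all genes were called.

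**Figure D5:**
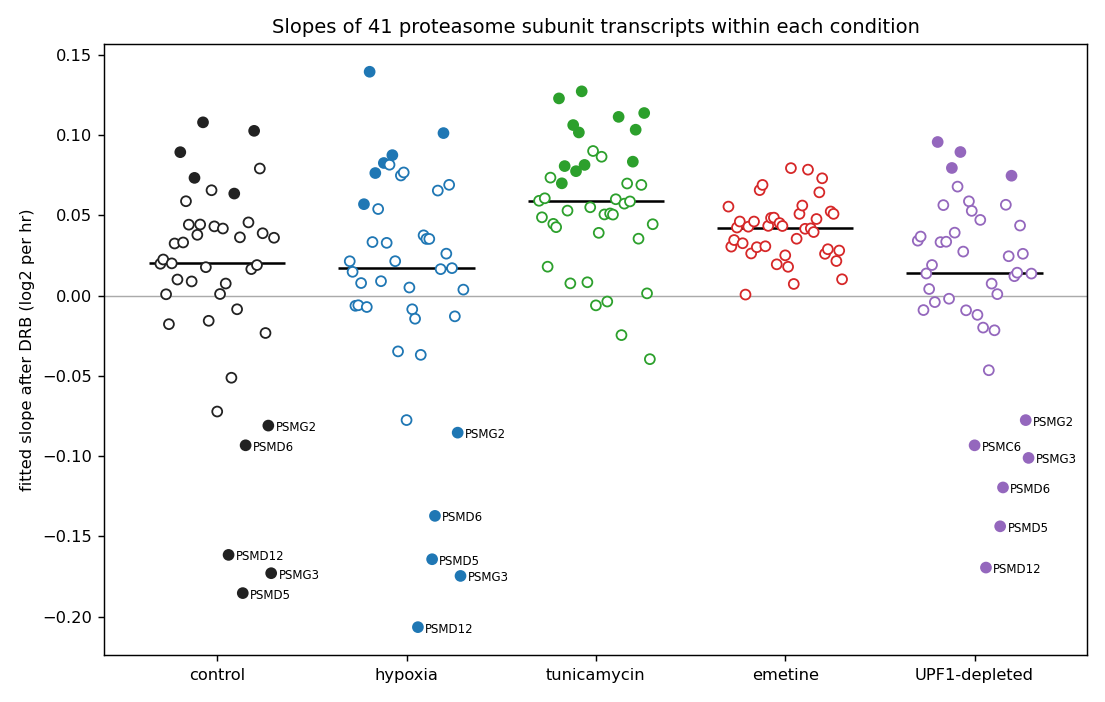
Fitted slope after DRB in log2 per hr for the 41 tested genes in each condition; filled points passed the test and black bars mark medians. The named transcripts fell: PSMD5, PSMD12, PSMD6, PSMG2 and PSMG3 in control, hypoxia and UPF1-depleted cells, PSMC6 in the last, and none in tunicamycin or emetine. Of all genes tested, 11.4% fell in tunicamycin, and 0.394% were called in either direction in emetine.

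Across the 20 arrays most members correlated positively with the median of the others. No other gene list was put through this calculation, so the likeness is not shown to be particular to the proteasome genes. The correlation of a gene with the median of the other members, given as a description over arrays that share conditions and time, was highest for the ATPase PSMC1 (r = 0.96), PSMC4 (0.92) and PSMA1 (0.91). It was lowest for PSMG2 (-0.32), PSMD5 (-0.26), PSMC6 (-0.17), PSMD12 (-0.16) and PSMG3 (0.02). All of these fell after DRB in at least 1 condition, a call made from the same arrays. PSMD6 followed at 0.29.

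Outside the named subunits, 29 genes of the ubiquitin-proteasome pathway were tested. In emetine 9 were higher and 6 lower, where 18.9% of all genes were higher and 19.8% lower. The largest test statistics belonged to ZFAND2A (1.68 ± 0.14), a proteasome-binding protein induced by arsenite, SQSTM1 (1.51 ± 0.13), the autophagy receptor p62, and MAFF (2.18 ± 0.20), a small Maf partner of NFE2L1 and NFE2L2. Both deubiquitinases of the 19S outside the rule, UCHL5 (-0.85 ± 0.14) and USP14 (-0.30 ± 0.08), were lower. SQSTM1 read 11.14 to 11.64 in emetine and 9.86 to 9.98 in control. NFE2L1 itself passed in no comparison of level or slope with control. It was at -0.30 ± 0.12 in emetine (limma adjusted p = 0.062), 0.03 in hypoxia, 0.04 in tunicamycin and 0.19 in UPF1-depleted cells.

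In tunicamycin ZFAND2A (1.21 ± 0.14), NFE2L2 (0.82 ± 0.13) and MAFF (1.13 ± 0.20) were higher and none of the 29 was lower, beside 1.97% and 0.926% of all genes. In UPF1-depleted cells 4 were higher and none lower (9.68% and 3.99% of all genes), among them ZFAND2A (2.60 ± 0.14), MAFF (1.12 ± 0.20) and SQSTM1 (0.46 ± 0.13). In hypoxia MAFF was higher (limma adjusted p = 0.013) and UCHL5 (-0.75 ± 0.14) lower.

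Other large complexes were read in the same way. In emetine, where 19.8% of all genes were lower, 6 of 7 tested genes of the CCT chaperonin, which folds actin and tubulin, were lower (median -0.36). Of the COP9 signalosome, whose subunits resemble those of the lid, 3 of 10 were lower (median -0.05). Of 60 cytosolic ribosomal protein genes 2 were lower and 1 higher (median -0.01). In hypoxia 2 of 7, 2 of 10 and 0 of 60 were lower, beside 4.44% of all genes. No difference between these lists and the proteasome genes was tested.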

How the data were processed

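RNA from U2OS cells was read on 20 Affymetrix arrays after 3'-IVT amplification. Each array gives 1 value per probe set. The authors deposited these intensities on a linear scale and made them with RMA, as the submitters' processing notes say, with the version not given in the sources used here. Because RMA puts arrays on a common scale, a loss of mRNA that most genes share after DRB is not visible. Array medians ran from 37.3 to 40.4.

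Intensities were converted to log2. Gene symbols came from GEO's platform annotation, leaving out 1801 with several symbols and 11777 with none. A gene was read from its brightest probe set, and the filter was the 40th percentile over probe sets (log2 4.70). Probe sets ending in _s_at or _x_at may cross-hybridize. All fits used limma 3.58.1 (R 4.3.3, lmFit and eBayes). Levels and slope differences came from 12 coefficients: each time point, each condition, and each condition's linear trend, leaving 8 residual degrees of freedom. Slopes within conditions came from an intercept and a slope for each. Benjamini-Hochberg adjustment covered all 14478 genes, or 32770 probe sets, at 0.05. With 1 array per condition and time, p-values measure only the scatter of arrays about lines, and culture and condition cannot be told apart.

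On simulated data with 14478 genes, slope differences of 0.2 were recovered for 23, 18, 26 and 30 of 100 changed genes in hypoxia, tunicamycin, emetine and UPF1 depletion, and level differences of 0.5 for 10, 0, 10 and 9. False calls were 2, 0, 0 and 4 for slopes and 0, 0, 0 and 1 for levels. No other genes were changed, whereas 19.8% of all genes were called lower and 18.9% higher in the emetine data. The adjusted threshold is less strict there, so these recovery rates do not give the power in emetine.

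Members, lists and tests were chosen with earlier results of these data known. Named were the members past the test, always the catalytic and inducible subunits, PSMD4, PSMD14, the activators, the inhibitor and the core chaperones, and of other lists at most 3 genes past the test and NFE2L1. UCHL5 and USP14 in emetine, PSMD1, PSMD5 and PSMC6 where not called, and the dimmer probe sets were named after their values were seen. Promoters are from RefSeq (GRCh38.p14). Alternatives changed the filter, the probe set rule, the scaling, the prior, the definition of the level and the arrays fitted.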

Additional observations from a re-analysis of the deposited data

Results flagged for a closer look

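Of 205 sets of 4 arrays (41 genes in 5 conditions), 7 held an array whose gap to its nearest neighbour exceeded Dixon's 95% critical value, where chance alone marks about 1 set in 20. The arrays of a set are successive times, so a lone array can also be a change over time. The lowest array was that at 0 hr for PSMB2 in hypoxia (12.37) and in UPF1-depleted cells (12.53), for PSME3 in hypoxia (9.69) and for PSME4 in hypoxia (10.34). The highest was that at 4.5 hr for PSMC3 (11.07) and PSMC4 (11.07) in emetine, and that at 1.5 hr for PSMD12 in tunicamycin (12.27).

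Slopes after DRB that differed from control by the test of the difference were those of PSMD12 (0.16), PSMD5 (0.16), PSMD6 (0.15) and PSMG3 (0.13) in tunicamycin, and of PSMD12 (0.20), PSMD14 (0.10), PSMD5 (0.23), PSMD6 (0.13) and PSMG3 (0.20) in emetine, in log2 per hr.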

How the results depend on the processing

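The counts of proteasome genes past the test stayed within 1.5 times the reported value in 129 recomputed cases and did not in 58. For levels in hypoxia (3) the count was 5 with the median of a gene's probe sets, 1 without probe sets that may cross-hybridize, 7 when centred on ribosomal protein genes, 10 with a trended robust prior, 14 for the mean over the 4 times, and 0 with only the compared conditions fitted. In tunicamycin (0) it was 1 after quantile normalization, 1 with the trended prior and 3 for the mean. In emetine (18) it was 28 with the trended prior and 30 for the mean, of which 4 were higher. In UPF1-depleted cells (1) it was 2 with the median, 3 after quantile normalization, 2 with the trended prior, 4 for the mean and 0 with only those conditions fitted. For slope differences in tunicamycin (4) it was 2 without the filter, 1 each with the median, without cross-hybridizing probe sets and with every probe set fitted, and 0 with only those conditions. In emetine (5) it was 3 under each of these 5 settings, 1 of the 3 being lower without cross-hybridizing probe sets. For slopes within conditions it was 16 in control (10) with the trended prior, 7, 5 and 20 in tunicamycin (12) without cross-hybridizing probe sets, when centred and with the trended prior, and 6 in UPF1-depleted cells (10) without the filter.

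Leaving out single arrays gave 0 to 3 for levels in hypoxia, 0 to 1 in tunicamycin, 4 to 19 in emetine and 0 to 1 in UPF1-depleted cells. It gave 0 to 3 for slope differences in tunicamycin, 2 to 4 in emetine and 0 in the other conditions. Within conditions it gave 3 to 9 in control, 3 to 8 in hypoxia, 0 to 14 in tunicamycin, 0 in emetine and 0 to 4 in UPF1-depleted cells.

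With the median of the probe sets 7 single values that passed the test before or after changed sign. PSME4 was at -0.42 in hypoxia and -0.39 in emetine, with a slope difference of 0.18 in emetine and slopes of -0.15 in control and -0.17 in UPF1-depleted cells. PSMB7 had slopes of -0.13 in tunicamycin and -0.30 in UPF1-depleted cells. Values that passed in neither fit changed sign too, such as PSMB7 in emetine, from -0.18 to 0.28. The median takes in probe sets below the filter, such as the second of PSMD5, whose slope difference in emetine was then 0.04 (limma adjusted p = 0.606). The causes of the other changes were not tested. Arrays of the same time are already compared with each other, since time is a term of the fit for levels and slope differences. Depth has no counterpart here: the number of arrays limits the precision.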
